A study of Mus musculus with 4 samples.

Results

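The mouse genes named Zfp600 to Zfp999 were described in kidney RNA of mice injected with cisplatin, a platinum drug that injures the kidney tubule, against mice injected with saline. Members were the protein-coding rows of the count table with a symbol from Zfp600 to Zfp999, selected on measured values by a sum of at least 100 counts over the 4 libraries. The sum does not use the difference between the groups. This gave 124 members of 139 such protein-coding rows, in a table of 29190 genes. The cisplatin group was 2 libraries from male C57 mice, 8 weeks old, given cisplatin at 30 mg/kg. The saline group was 2 libraries from male C57 mice of the same age given physiological saline. The protocol divided 18 mice into 3 groups and names killing at 24 h or 48 h after cisplatin, and the sources used here do not say which of these times the cisplatin libraries represent. The labels call the 2 libraries of a group biological replicates without saying whether tissue was pooled, so p-values measure the spread between these libraries.

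Zfp is the mouse prefix for zinc finger protein. Most of these genes encode arrays of C2H2 fingers, short loops held by a zinc ion between paired cysteines and histidines, each of which can read a few bases of DNA. Many carry a KRAB box near the N terminus, which binds Trim28 (KAP1). Trim28 in turn brings the histone H3 lysine 9 methyltransferase Setdb1, HP1 proteins and the NuRD complex to the bound site, a route best known for silencing endogenous retroviruses. KRAB zinc finger genes multiplied by local duplication, so many lie side by side and share sequence. In the adult kidney most of them have no assigned role.

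Over the 4 libraries the members spanned 141 to 18438 summed counts, with a median of 1139.5. All 124 passed the low-count filter, against 5 of the 15 genes that fell under 100 counts. The cisplatin libraries held 20662475 and 23150274 counts and the saline libraries 21483564 and 27122403. Log2 CPM (counts scaled to the library total) correlated across genes at 0.992 and 0.993 between libraries of the same treatment and at 0.892 to 0.894 between treatments. Levels below are CPM after TMM scaling, for comparing libraries, and the authors' FPKM, which is per length, for comparing genes.

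The kidney response itself was broad. Proximal tubule markers summed to 2927 and 2936 CPM in the cisplatin libraries, against 18721 and 19120 CPM in the saline libraries, and 10 of 10 were lower. Neutrophil markers summed to 31.9 and 34.5 CPM in the cisplatin libraries, against 2.91 and 4.17 CPM in the saline libraries, with 6 of 7 higher and Ly6g at 0 in both saline libraries. Fibroblast and mural markers summed to 1282 and 1283 CPM after cisplatin, against 426 and 448 CPM after saline, with 7 of 8 higher and 1 lower. Macrophage markers had 5 of 8 higher and 1 lower, endothelial markers 5 of 8 higher and 2 lower, lymphocyte markers 2 of 8 higher, and podocyte markers 5 of 5 higher. Of the thick limb and distal tubule markers 5 of 5 were lower, and of the collecting duct markers 4 of 5 were lower and 1 higher. In such bulk tissue, fewer cells of a type and less RNA per cell cannot be told apart. What part these shifts have in the zinc finger gene values was not tested.

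Most of the members changed, and with TMM scaling more fell than rose, an order that turned round with library size alone. By edgeR's quasi-likelihood test, with Benjamini-Hochberg adjustment over all 17419 genes tested, 81 of 124 members (65.3%) were called at an adjusted p under 0.05. The background was 73.6% of all genes. Of the members, 28 (22.6%) were higher, against 37.2% of all genes, and 53 (42.7%) were lower, against 36.4% of all genes. All members are protein-coding, and of the 14449 protein-coding genes tested 77.4% were called, 37.6% higher and 39.7% lower. Only 22 members (17.7%) moved at least 2-fold as well, 10 up and 12 down, against 35.3% of all genes. Cisplatin and saline libraries did not overlap for 104 members, or 83.9%, against 86.3% of all genes. Among protein-coding genes tested, 34.8% were called and moved at least 2-fold, and 88.5% did not overlap.

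The members' log2 fold changes, cisplatin over saline, ran from -1.88 to 3.28, with a median of -0.10 and quartiles of -0.54 and 0.28. The median was 0.04 over all genes tested and -0.01 over the 14449 protein-coding ones. Setting the sign aside, the median size of the log2 change was 0.45 for the members, against 0.69 for protein-coding genes. The 181 genes numbered Zfp1 to Zfp599 with at least 100 counts had a median log2 change of 0.01 and a median size of 0.52. Among them 62 were higher and 65 lower, and 31 (17.1%) moved at least 2-fold. In both numbered ranges the share of genes moving at least 2-fold was under the 35.3% of all genes.

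**Figure D1:**
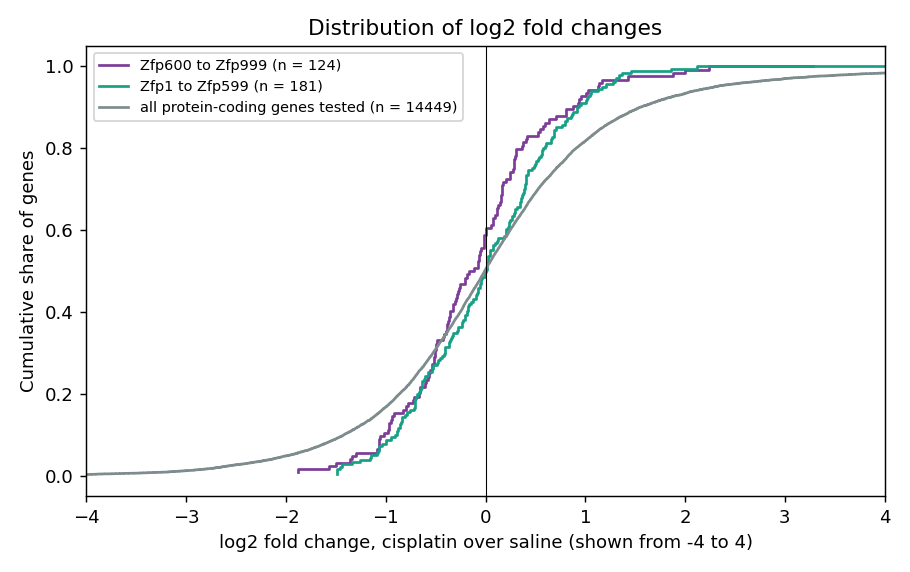
Cumulative share of genes (vertical axis) against the log2 fold change of cisplatin over saline (horizontal axis, shown from -4 to 4) for the 124 members, the 181 genes Zfp1 to Zfp599 and the 14449 protein-coding genes tested. Both zinc finger curves are steeper than the curve of all protein-coding genes, with medians of -0.10, 0.01 and -0.01 in that order.

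The balance between rises and falls depends on how libraries are scaled. TMM factors were 1.15 and 1.12 for the cisplatin libraries and 0.861 and 0.901 for the saline libraries. With scaling to library size alone, 58 members were higher and 25 lower, and the member median moved to 0.27. The background moved with it, to 52.3% of all genes higher and 24.2% lower, with a median over all genes of 0.41. With upper-quartile scaling, 38 members were higher and 46 lower, and the member median was 0.02 beside 0.16 for all genes. All 28 members called higher with TMM were higher with library size alone. Of the 53 called lower, 25 were lower with library size alone, 28 were not called and 0 were higher. In all 6 combinations of scaling and test, 22 members were called higher and 14 lower.

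Summed over the members, the direction likewise follows the scale. Before TMM scaling, the members summed to 2887 and 2637 CPM in the cisplatin libraries, against 2459 and 2602 CPM in the saline libraries. After TMM scaling they summed to 2516 and 2354 CPM in the cisplatin libraries, against 2859 and 2891 CPM in the saline libraries. The cisplatin libraries lay above the saline libraries on the first scale and below them on the second.

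**Figure D2:**
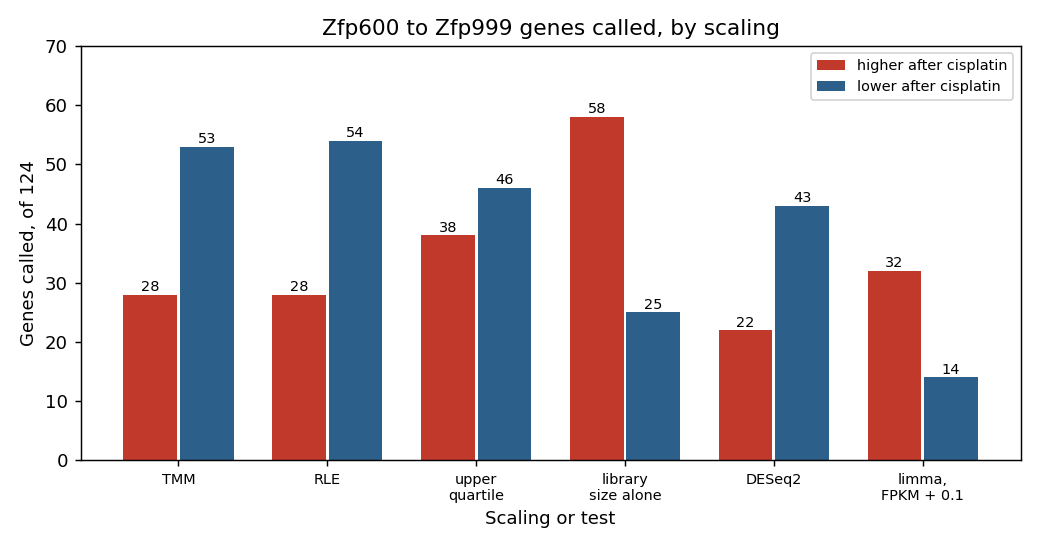
Number of the 124 members called higher (red) or lower (blue) after cisplatin, for each scaling or test. Falls outnumber rises with TMM (28 higher, 53 lower) and DESeq2 (22 and 43), while rises outnumber falls with library size alone (58 and 25) and with limma on FPKM (32 and 14).

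The rising gene with a known place in epithelium leads the list. Zfp750, a transcription factor of epidermal terminal differentiation, stood at 25.3 and 25.7 CPM in the cisplatin libraries, against 2.76 and 2.50 CPM in the saline libraries. The cisplatin libraries lay far above the saline libraries, and replicates were close together. The log2 fold change of this gene was 3.28 ± 0.13 (SE), with an edgeR quasi-likelihood adjusted p of 1.94e-14. Zfp750 (ENSMUSG00000039238.6) lies on the minus strand of chr11:121510978-121519333 (GRCm38), and no finger of the classical C2H2 spacing was found in its protein.

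Zfp703 encodes a NET-family corepressor whose human form, ZNF703, is known from breast cancer. It had 7.59 and 7.40 CPM after cisplatin, against 2.22 and 1.60 CPM after saline, without overlap between the groups. The log2 fold change was 2.0 ± 0.20 (SE; adjusted p 3.16e-08 by edgeR's quasi-likelihood fit). Exons of Gm45371 lie on the opposite strand, and since the strand use of the counting is not given, reads of the 2 genes cannot be told apart. On the log2(FPKM + 1) scale, which understates change at low levels, the differences shrank to 0.95 for Zfp703 and 2.14 for Zfp750.

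Zfp688, Zfp747 and Zfp764 are neighbours on chromosome 7 that rose together. Their promoters are shown because the 3 genes moved alike while the DNA before their start sites differs in kind, and the promoter of Zfp606, a gene of the same chromosome that fell, is shown beside them. Each line is the 250 bases before the RefSeq start site, read 5′ to 3′ on the gene's strand, from build GRCm38.p6. The windows are chr7:127422035-127422284 (minus strand) for Zfp688, chr7:127376051-127376300 (minus) for Zfp747, chr7:127406823-127407072 (minus) for Zfp764 and chr7:12478055-12478304 (plus) for Zfp606. Capitals mark a match on either strand to CCGGAAG, an ETS-family motif, or to TGACG, the core of the cyclic AMP response element.
Zfp688: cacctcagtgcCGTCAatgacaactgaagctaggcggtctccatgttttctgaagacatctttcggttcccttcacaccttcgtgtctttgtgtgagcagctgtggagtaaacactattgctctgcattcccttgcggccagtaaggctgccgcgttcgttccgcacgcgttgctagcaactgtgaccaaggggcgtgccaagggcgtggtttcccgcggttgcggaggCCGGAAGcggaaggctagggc
Zfp747: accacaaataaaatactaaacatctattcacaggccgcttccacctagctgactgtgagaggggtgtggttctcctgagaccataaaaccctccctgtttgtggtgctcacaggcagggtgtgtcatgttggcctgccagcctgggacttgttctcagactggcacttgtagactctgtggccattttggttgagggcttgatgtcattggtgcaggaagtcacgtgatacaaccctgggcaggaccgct
Zfp764: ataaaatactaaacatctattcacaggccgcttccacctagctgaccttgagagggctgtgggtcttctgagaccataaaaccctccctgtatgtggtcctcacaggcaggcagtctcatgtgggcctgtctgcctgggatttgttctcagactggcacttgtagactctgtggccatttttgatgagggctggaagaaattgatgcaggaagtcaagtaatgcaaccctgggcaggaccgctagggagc
Zfp606: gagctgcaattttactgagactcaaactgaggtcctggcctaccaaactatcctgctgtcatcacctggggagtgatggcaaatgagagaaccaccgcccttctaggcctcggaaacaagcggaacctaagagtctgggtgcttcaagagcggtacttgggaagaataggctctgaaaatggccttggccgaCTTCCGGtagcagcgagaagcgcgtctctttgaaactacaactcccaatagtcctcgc
The Zfp688 window holds 18 CpG dinucleotides, a CCGGAAG match and a TGACG match. The Zfp606 window holds 10 CpG and a CCGGAAG match. By the GENCODE annotation both genes start inside these windows, and the CCGGAAG match of Zfp688 lies within the gene. The windows of Zfp747 and Zfp764 hold 3 and 2 CpG and neither motif, and are near copies of each other: over 243 aligned bases 219 were identical, or 90.1%.

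RefSeq promoter entries matched 106 members, with 132 windows between them. CCGGAAG on either strand was in 13.6% of these windows, against 6.91% of all 32851 mouse promoters of the table. TGACG was in 31.8% of member windows and 17.8% of all windows, and GCGCATG, an NRF1 motif, in 6.06% and 3.24%. AAGATGG, a YY1 motif, was in 3.03% of member windows and 4.49% of all. Members' windows had a median of 11.5 CpG, against 6 over all promoters. Windows of members called higher held CCGGAAG in 16.1% and TGACG in 29.0%, and windows of members called lower in 12.1% and 25.9%. The members were selected by their kidney counts, while the full set holds promoters of 27025 genes whether or not they are expressed in kidney. Promoters of expressed genes alone were not compared, so these differences cannot be assigned to the zinc finger genes. These matches describe letters in a window and nothing about binding.

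Zfp688 (ENSMUSG00000045251.11, chr7:127418967-127422068, minus strand) reached 21 and 18.9 CPM in the cisplatin libraries, against 4.33 and 4.10 CPM in the saline libraries. That gave a log2 fold change of 2.24 ± 0.13 (SE), with an edgeR quasi-likelihood adjusted p of 6.33e-12. Its protein has a KRAB box and only 2 fingers of the classical spacing, while the median member has 10.5. Per length it became one of the more abundant members, at 14.4 and 12.8 FPKM after cisplatin, against 2.33 and 2.43 FPKM after saline.

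Zfp747 stood at 21.6 and 17.2 CPM after cisplatin, against 6.33 and 7.95 CPM after saline, a log2 fold change of 1.43 ± 0.14 (SE). Zfp764 stood at 14.6 and 15.5 CPM after cisplatin, against 6.71 and 7.09 CPM after saline, a log2 fold change of 1.12 ± 0.12 (SE). In both genes every cisplatin library exceeded every saline library, with edgeR quasi-likelihood adjusted p-values of 1.58e-08 and 1.05e-07. These genes are partly copies: of the 100-base windows along 1 transcript of each gene, 11.9% for Zfp747 and 8.05% for Zfp764 also occur in transcripts of other genes. For both, the other genes are 9130019O22Rik and the partner of the pair. Reads from those stretches could have been counted for any of these genes.

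The remaining rises of the leading 8 lie elsewhere. Zfp948 lies on chromosome 17 and has 15 fingers and, by the wider motif only, a KRAB box. It had 33.7 and 28.7 CPM after cisplatin, against 7.95 and 8.89 CPM after saline (log2 fold change 1.88 ± 0.11 SE). Zfp622, whose human form is known for a role in making the large ribosomal subunit, had 56.6 and 55.5 CPM after cisplatin, against 24.4 and 25.5 CPM after saline (1.17 ± 0.07 SE). Zfp954 had 27.9 and 24.4 CPM after cisplatin, against 10.8 and 12.8 CPM after saline (1.14 ± 0.11 SE). None of these groups overlapped, and the edgeR quasi-likelihood adjusted p-values were 9.68e-12, 2.33e-11 and 1.63e-08.

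**Figure D3:**
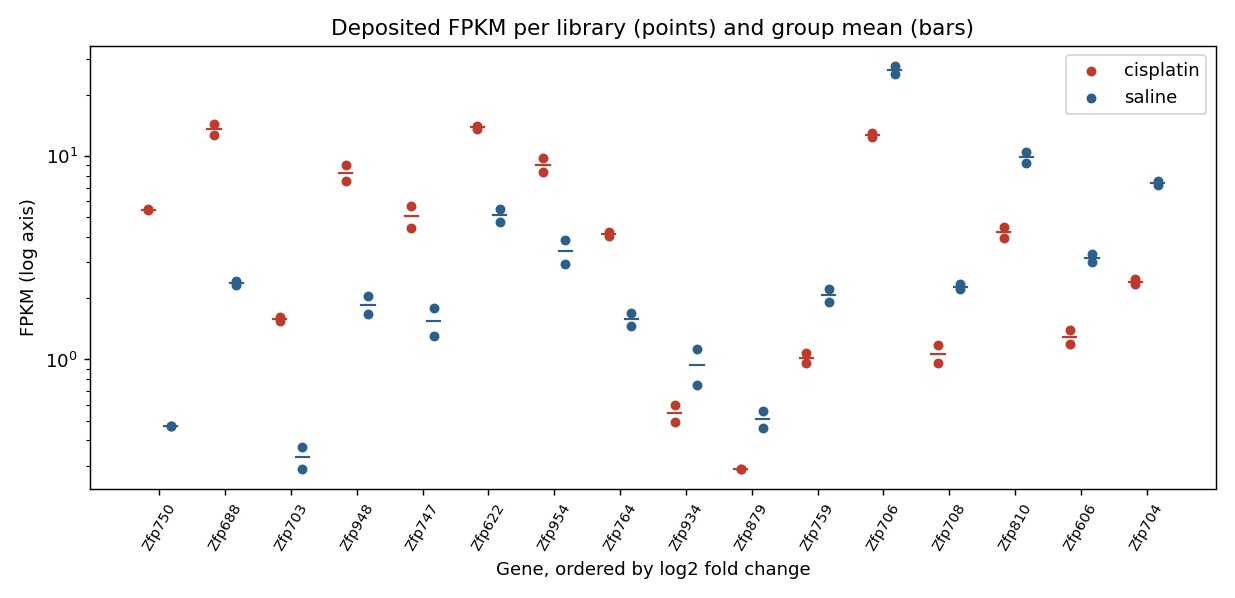
The authors' FPKM (log axis) of the 8 largest rises and 8 largest falls among the members, per library (points) with group means (bars), cisplatin left of saline. Zfp688 sits at 12.8 to 14.4 FPKM after cisplatin and near 2.4 FPKM after saline, while Zfp704 sits near 2.4 FPKM after cisplatin and above 7 FPKM after saline.

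The deepest fall was in Zfp704, also called Gig1 for its induction by glucocorticoid. Its level was 49.1 and 47.4 CPM in the cisplatin libraries, against 183 and 173 CPM in the saline libraries. Replicates differed little beside the gap between groups. The log2 fold change was -1.88 ± 0.06 (SE), with an edgeR quasi-likelihood adjusted p of 4.07e-16. The gene covers chr3:9427020-9610085 on the minus strand (GRCm38), and exons of C030034L19Rik lie opposite it.

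Zfp606, whose promoter is printed above, had 9.62 and 8.33 CPM in the cisplatin libraries, against 26.5 and 26.5 CPM in the saline libraries. Zfp810, on chromosome 9, had 20.8 and 18.7 CPM in the cisplatin libraries, against 55.0 and 56.6 CPM in the saline libraries. For both genes all cisplatin values were under all saline values. The log2 fold changes were -1.56 ± 0.11 and -1.50 ± 0.08 (SE), with edgeR quasi-likelihood adjusted p-values of 7.91e-11 and 1.67e-12. Zfp606 and Zfp810 encode KRAB zinc finger proteins.

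Zfp706 is a short protein that represses Klf4 in mouse embryonic stem cells. It had 82.5 and 79.4 CPM after cisplatin, against 205 and 203 CPM after saline, a log2 fold change of -1.34 ± 0.06 (SE; adjusted p 5.80e-14 by edgeR's quasi-likelihood fit). Per length it was among the most abundant members, at 13.1 and 12.4 FPKM after cisplatin, against 25.5 and 27.8 FPKM after saline.

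Zfp708 and Zfp759 are neighbours on chromosome 13. Zfp708 had 4.13 and 3.43 CPM after cisplatin, against 10.5 and 8.97 CPM after saline (log2 fold change -1.36 ± 0.17 SE; adjusted p 4.43e-07 by edgeR's quasi-likelihood fit). All 2437 windows of 100 bases along the transcript examined also occur in Gm28557, Zfp85 or Rslcan18, so its own level is uncertain. Zfp759 had 5.36 and 4.86 CPM after cisplatin, against 12.2 and 12.8 CPM after saline (-1.29 ± 0.14 SE; adjusted p 6.84e-08 by edgeR's quasi-likelihood fit). On the log2(FPKM + 1) scale the falls were smaller, at -1.30 for Zfp704, -0.86 for Zfp606, -0.67 for Zfp708 and -0.60 for Zfp759.

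Zfp879 and Zfp934 were also named among the falls, at the low end of expression. Zfp879 had 1.01 and 1.00 CPM after cisplatin, against 2.49 and 1.84 CPM after saline (log2 fold change -1.08 ± 0.31 SE; adjusted p 0.00418 by edgeR's quasi-likelihood fit). Zfp934, with 14.1% of the windows of 1 transcript shared with other genes, had 1.22 and 1.00 CPM after cisplatin, against 1.95 and 2.66 CPM after saline (-1.07 ± 0.30 SE; adjusted p 0.00356 by edgeR's quasi-likelihood fit). DESeq2 called neither, with adjusted p-values of 0.0558 and 0.0576. Without saline replicate 2, the log2 fold change of Zfp934 was -0.81 with an edgeR adjusted p of 0.0685.

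**Figure D4:**
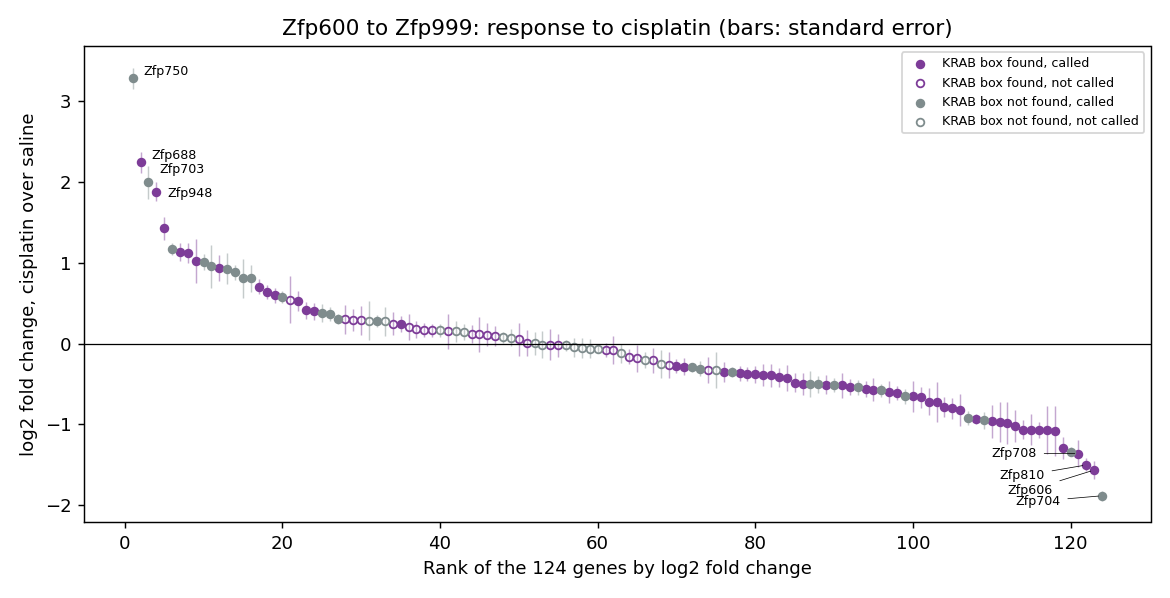
Log2 fold change of cisplatin over saline for the 124 members in rank order, with standard errors. Purple points have a KRAB box by the wider motif, grey points do not, and filled points were called. The rising end is led by Zfp750 at 3.28 and the falling end by Zfp704 at -1.88.

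The most abundant members per length did not move in common. Zfp871 was the highest, at 19 and 17.2 FPKM after cisplatin, against 27.7 and 29.7 FPKM after saline. In scaled counts it had 146 and 135 CPM after cisplatin, against 272 and 265 CPM after saline, without overlap, and fell by 0.93 ± 0.06 (SE) on the log2 scale (adjusted p 3.84e-11 by edgeR's quasi-likelihood fit). Zfp664 had 104 and 92.8 CPM after cisplatin, against 79.3 and 79.8 CPM after saline, and was called higher at a log2 fold change of 0.30 ± 0.06 (SE; adjusted p 1.25e-04 by edgeR's quasi-likelihood fit).

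Zfp869 showed how thin a call can be. Its values were 38.1 and 30.6 CPM after cisplatin, against 28.5 and 29.5 CPM after saline, with 1 cisplatin library just above the saline libraries. The log2 fold change of 0.24 ± 0.10 (SE) had an edgeR quasi-likelihood adjusted p of 0.0309. Without cisplatin replicate 1 it was 0.08 with an adjusted p of 0.543, without saline replicate 1 the adjusted p was 0.0631, and DESeq2 gave 0.173. Of the other members, 22 had a mean under 1 FPKM, and the median member had 2.57 FPKM.

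Members tied to the silencing of retroviruses moved in opposite directions. Zfp809, which recognises the proline tRNA primer binding site of retroviral DNA, had 31.3 and 28.0 CPM after cisplatin, against 18.2 and 18.1 CPM after saline. The cisplatin libraries lay clear of the saline libraries, with a log2 fold change of 0.70 ± 0.09 (SE; adjusted p 1.51e-06 by edgeR's quasi-likelihood fit). Zfp932, which represses endogenous retroviruses together with its neighbour Gm15446, had 8.98 and 6.83 CPM after cisplatin, against 11 and 12.3 CPM after saline. It was lower at a log2 fold change of -0.57 ± 0.14 (SE; adjusted p 0.0015 by edgeR's quasi-likelihood fit), 22.1% of the windows of 1 transcript were shared with other genes, and with library size alone it was not called.

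Zfp638, known as ZNF638 in human cells for silencing unintegrated retroviral DNA through the HUSH complex, had 114 and 102 CPM after cisplatin, against 133 and 144 CPM after saline. Its log2 fold change of -0.35 ± 0.06 (SE; adjusted p 5.60e-05 by edgeR's quasi-likelihood fit) turned to 0.01 with library size alone. Zfp644, a partner of the H3 lysine 9 methyltransferases G9a and GLP, had 135 and 126 CPM after cisplatin, against 160 and 160 CPM after saline. Its log2 fold change of -0.29 ± 0.06 (SE; adjusted p 1.64e-04 by edgeR's quasi-likelihood fit) turned to 0.07 with library size alone. In both, the cisplatin libraries lay below the saline libraries by a margin that the choice of scaling can remove.

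Zfp746 (PARIS), a repressor of the mitochondrial coactivator gene Ppargc1a, had 26.6 and 25.8 CPM after cisplatin, against 13.6 and 12.4 CPM after saline. The gap was wide beside the replicate spread, and the log2 fold change was 1.01 ± 0.10 (SE; adjusted p 1.98e-08 by edgeR's quasi-likelihood fit). Zfp687, found in human cells in a complex with ZMYND8, had 17.6 and 18.9 CPM after cisplatin, against 14.8 and 13.4 CPM after saline. The log2 fold change of 0.38 ± 0.11 (SE) was called by edgeR's quasi-likelihood fit (adjusted p 0.00344), while DESeq2 gave an adjusted p of 0.0616.

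Zfp830 (Omcg1), needed in the early embryo and for pre-mRNA splicing, had 18.5 and 16.8 CPM after cisplatin, against 33.9 and 32.8 CPM after saline. Zfp827, whose human form brings NuRD to telomeres, had 17.8 and 18.4 CPM after cisplatin, against 28.1 and 28.8 CPM after saline. Both fell without overlap, by 0.92 ± 0.09 and 0.65 ± 0.09 (SE) on the log2 scale, with edgeR quasi-likelihood adjusted p-values of 2.46e-08 and 2.59e-06. Zfp827 was not called by limma on log2(FPKM + 0.1), at -0.36. Zfp667 (Mipu1), described in rat tissue after ischaemia, had 3.37 and 4.90 CPM after cisplatin, against 6.66 and 6.43 CPM after saline. Its log2 fold change of -0.65 ± 0.19 (SE; adjusted p 0.00414 by edgeR's quasi-likelihood fit) was -0.42 with an adjusted p of 0.0854 without cisplatin replicate 1, and it was not called with library size alone.

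Other members with a known role were not called. Zfp609, which binds Nipbl and Integrator, had 24.2 and 23.3 CPM after cisplatin, against 25.3 and 20.04 CPM after saline, with the saline libraries spanning the cisplatin libraries. Zfp652, whose human form binds the corepressor CBFA2T3, had 45.1 and 44.7 CPM after cisplatin, against 44.6 and 46.4 CPM after saline. Zfp655, a Vav-interacting protein, had 92.7 and 87.8 CPM after cisplatin, against 94.5 and 94.5 CPM after saline. Zfp711, whose human form binds the demethylase PHF8, had 2.70 and 2.70 CPM after cisplatin, against 2.16 and 2.25 CPM after saline. Their log2 fold changes were 0.07 ± 0.11, -0.02 ± 0.07, -0.07 ± 0.05 and 0.29 ± 0.24 (SE), and each was called higher with library size alone. Zfp819, listed with them, had 4 counts in all and was not tested.

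The 4 members with the widest replicate spread need the most care. Zfp668, a human DNA repair factor whose exons overlap those of Zfp646, had 4.93 and 4.05 CPM after cisplatin, against 1.79 and 3.20 CPM after saline. Its log2 fold change was 0.81 ± 0.24 (SE; adjusted p 0.00556 by edgeR's quasi-likelihood fit), but the adjusted p was 0.0639 without cisplatin replicate 1, 0.066 without saline replicate 1 and 0.0592 in DESeq2. Zfp820 had 3.21 and 1.81 CPM after cisplatin, against 4.0 and 4.22 CPM after saline, with cisplatin replicate 2 far under the others. The fitted log2 fold change was -0.73 ± 0.25 (SE; adjusted p 0.0125 by edgeR's quasi-likelihood fit), and -0.36 with an adjusted p of 0.226 without that library.

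Zfp784 and Zfp947 were not called and overlapped between the groups. Zfp784 had 3.25 and 3.62 CPM after cisplatin, against 3.25 and 5.24 CPM after saline. It was called only without saline replicate 1, at a log2 fold change of -0.62, and stood at 0.08 without saline replicate 2. Zfp947 had 7.34 and 4.74 CPM after cisplatin, against 6.17 and 5.98 CPM after saline, and both saline libraries lay between the cisplatin libraries.

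KRAB genes and the other members were set side by side without a test of their difference. All 124 members were matched to the GENCODE M21 annotation. The KRAB motifs were sought in every translated coding sequence of a gene, and fingers were counted in the longest. With the stricter of 2 KRAB motifs, 61 members had the box, of which 10 were higher and 32 lower (52.5%), with a median log2 fold change of -0.33. Of the other 63 members, 18 were higher and 21 lower (33.3%), with a median of -0.02. Beside both classes, 37.2% of all genes were higher and 36.4% lower. Of protein-coding genes tested, 37.6% were higher and 39.7% lower. The wider motif, added after values were seen, found the box in 79 members, of which 14 were higher, 40 lower and 25 not called, with a median of -0.29. In the other 45 members 14 were higher, 13 lower and 18 not called, with a median of -0.01. With library size alone the medians of these last classes were 0.08 and 0.35, with 31 higher and 19 lower against 27 higher and 6 lower. In that setting 52.3% of all genes were higher and 24.2% lower, with a median over all genes of 0.41.

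The number of fingers went from none in 7 members to 33 in Zfp619. The 18 members with 3 fingers or fewer had 7 higher (38.9%) and 5 lower (27.8%) and a median log2 fold change of 0.11. The 56 members with 4 to 11 fingers had 10 higher (17.9%) and 22 lower (39.3%), with a median of -0.06. The 50 members with 12 or more had 11 higher (22%) and 26 lower (52%), with a median of -0.31. Beside these classes, 37.6% of all protein-coding genes tested were higher and 39.7% lower. Differences between the classes were not tested. Across the 124 genes, which are not independent replicates, Spearman's rho of the log2 fold change was -0.19 with the finger count, -0.25 with the genomic span, -0.03 with exon length and 0.09 with mean FPKM.

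The members' calls differed in balance by chromosome, described here for the chromosomes with at least 10 members. Of 29 members on chromosome 7, 11 were higher and 7 lower, with a median log2 fold change of 0.15. Of 18 on chromosome 17, 1 was higher and 12 lower, with a median of -0.38. Of 16 on chromosome 8, 4 were higher and 7 lower, with a median of -0.14. Of 10 on chromosome 13, 0 were higher and 7 lower, with a median of -0.75. Beside these, 37.6% of all protein-coding genes tested were higher and 39.7% lower. Members within 2 Mb of the next, in runs of at least 4, formed 11 clusters, not all of which are described below. In the others, higher and lower members numbered 2 and 1 on chromosome 6. On chromosome 7 they numbered 3 and 1, 1 and 1, and 1 and 1. On chromosome 8 they numbered 1 and 1, and 1 and 3, and on chromosome 9, 1 and 1.

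The chromosome 7 cluster at chr7:127244274-127885996 (GRCm38) held 9 members. Zfp688, Zfp747, Zfp764, Zfp689, Zfp668 and Zfp646 were higher, Zfp768 and Zfp629 lower, and Zfp771 not called, with a median log2 fold change of 0.81. Zfp646 had 51.5 and 49.1 CPM after cisplatin, against 34.7 and 32.8 CPM after saline. Zfp768 had 12 and 12.8 CPM after cisplatin, against 25.8 and 22.4 CPM after saline. The next member along is Zfp747, which was higher, so adjacent members went both ways. The 21 other protein-coding genes tested in the interval had 12 higher, 2 lower and 7 not called, with a median of 0.42, beside 37.6% higher among all protein-coding genes tested. Whether the interval differs from other intervals was not tested. With library size alone 6 members were higher and 1 lower, beside 52.3% of all genes higher and 24.2% lower.

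On chromosome 17, the cluster at chr17:21383748-22867134 held 11 members, of which Zfp948 was higher, 7 were lower and 3 were not called, with a median log2 fold change of -0.37. The 10 other protein-coding genes tested there had 4 higher, 2 lower and 4 not called. With library size alone the members' median there was 0.00, with 3 higher and 2 lower. The cluster at chr17:32765496-33033402 held Zfp871, Zfp799, Zfp870, Zfp952 and Zfp763, with 4 lower, Zfp870 not called and a median of -0.93. Its 4 other protein-coding genes tested had 1 higher, 1 lower and 2 not called. The cluster at chr13:67038596-67687071 held Zfp712, Zfp708, Zfp759, Zfp953, Zfp748 and Zfp738, with 4 lower, 2 not called and a median of -0.78. Its 19 other protein-coding genes tested had 5 higher, 5 lower and 9 not called. Beside these clusters, 37.6% of all protein-coding genes tested were higher and 39.7% lower. With library size alone, each of these last clusters had 3 members lower and 1 higher, beside 24.2% of all genes lower and 52.3% higher.

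**Figure D5:**
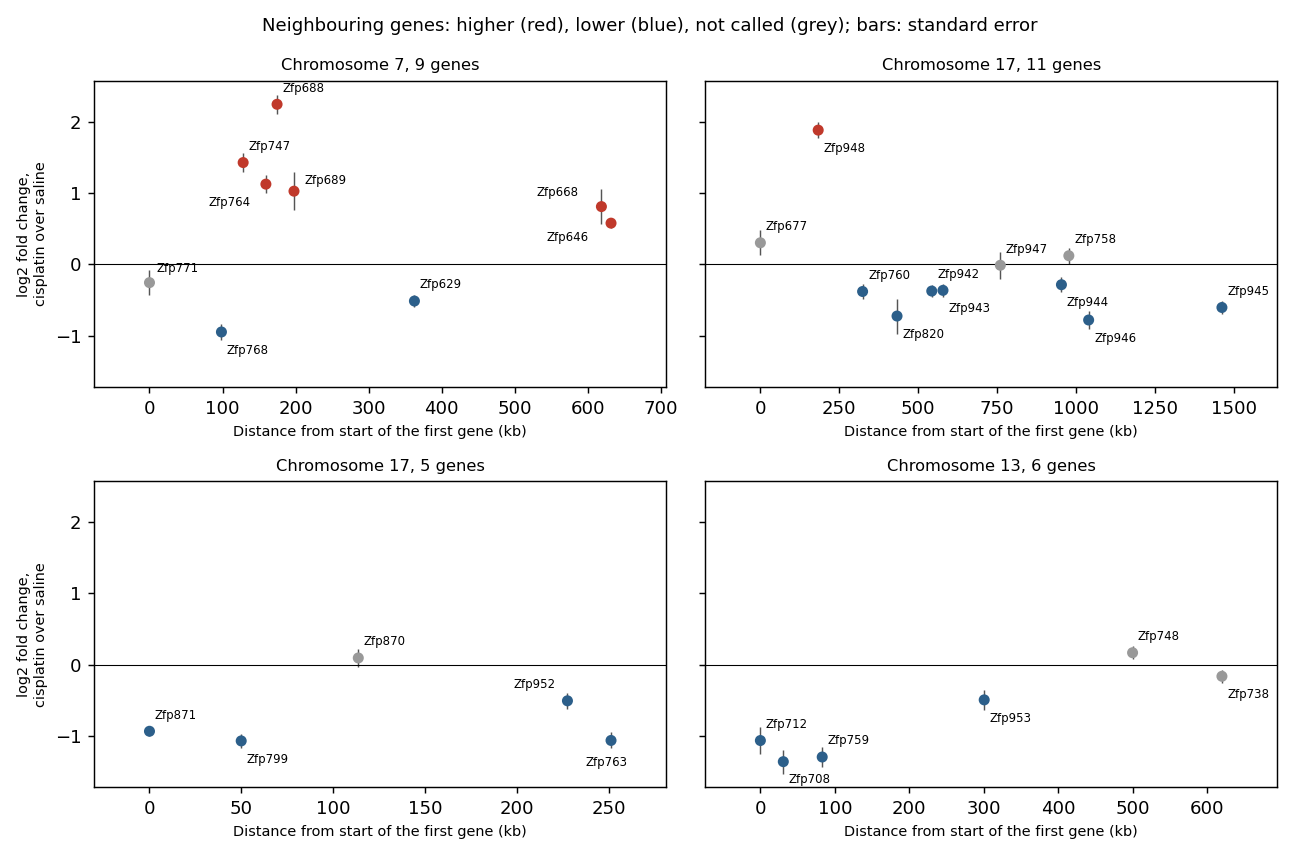
Log2 fold change (cisplatin over saline, bars are standard errors) of members in 4 chromosome clusters against the distance in kb from the start of the first gene. In the chromosome 7 panel 6 of 9 genes are higher (red) and 2 lower (blue), while in the chromosome 13 panel 4 of 6 are lower and none is higher.

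Copies and overlaps touch many of the members. Exons of 42 members overlap exons of another gene, 17 on the same strand and 30 on the opposite one, some of them on both. Windows of 100 bases shared with other genes occur in 35 members, by 1 transcript of each, and make up over 10% of the windows in 14, with the highest shares in Zfp708 (100%) and Zfp935 (99.3%). The 82 members without an exon overlap had 17 higher (20.7%) and 39 lower (47.6%), with a median log2 fold change of -0.23. The 89 without shared windows had 23 higher and 35 lower, with a median of -0.05. Beside these subsets, 37.6% of all protein-coding genes tested were higher and 39.7% lower, and no difference from them was tested.

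The partners of KRAB proteins also split. Of 38 listed corepressor genes 37 were found and tested, with a median log2 fold change of -0.12. Among them 12 (32.4%) were higher, against 37.2% of all genes, and 18 (48.6%) lower, against 36.4% of all genes. With library size alone 21 were higher and 6 lower, beside 52.3% of all genes higher and 24.2% lower. Trim28, the scaffold that KRAB boxes bind, had 93.3 and 93.9 CPM after cisplatin, against 45 and 49.3 CPM after saline. The cisplatin libraries lay far above the saline libraries, with a log2 fold change of 0.99 ± 0.06 (SE; adjusted p 1.41e-11 by edgeR's quasi-likelihood fit).

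Downstream of Trim28 the levels did not move the same way. Setdb1, its methyltransferase, had 33.3 and 34.5 CPM after cisplatin, against 34.7 and 39.0 CPM after saline, and was not called (log2 fold change -0.12 ± 0.08 SE). With library size alone Setdb1 was called higher at 0.24 (adjusted p 0.0174 by edgeR's quasi-likelihood fit), and without saline replicate 1 it was called lower at -0.21. Cbx5, which encodes HP1 alpha, had 192 and 188 CPM after cisplatin, against 260 and 262 CPM after saline, a log2 fold change of -0.46 ± 0.06 (SE; adjusted p 6.08e-07 by edgeR's quasi-likelihood fit) that was not called with library size alone. Chd4, a NuRD remodeller, was not called at -0.11 ± 0.06 (SE) and turned to 0.26, called higher, with library size alone. Dnmt1, the maintenance DNA methyltransferase, was not called at 0.17 ± 0.08 (SE), and was called higher with library size alone and with upper-quartile scaling. Dnmt1 also passed edgeR's test without saline replicate 1 and without cisplatin replicate 1, at 0.25 in both.

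The largest moves in the list were in other subunits. Wiz, the zinc finger partner of G9a and GLP, had 12.4 and 14.8 CPM after cisplatin, against 4.76 and 4.79 CPM after saline (log2 fold change 1.51 ± 0.15 SE). Uhrf1, which recruits Dnmt1, had 5.15 and 4.36 CPM after cisplatin, against 2.33 and 1.97 CPM after saline (1.15 ± 0.22 SE). Chd3, the other NuRD remodeller listed, had 217 and 221 CPM after cisplatin, against 469 and 482 CPM after saline (-1.12 ± 0.06 SE). Wiz and Uhrf1 were higher and Chd3 lower without overlap, with edgeR quasi-likelihood adjusted p-values of 1.37e-08, 9.61e-05 and 8.31e-13. Atf7ip2, a Setdb1 partner, had 1.27 and 0.771 CPM after cisplatin, against 3.19 and 3.32 CPM after saline (-1.69 ± 0.29 SE; adjusted p 2.93e-05 by edgeR's quasi-likelihood fit). On the log2(FPKM + 1) scale the change was -0.38 for Atf7ip2 and 0.51 for Uhrf1.

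The limit of 100 counts left out 15 genes. Just inside it were Zfp879 with 141 summed counts, Zfp786 with 148 and Zfp934 with 156. Just outside were Zfp647 with 96, Zfp773 with 58 and Zfp811 with 56. Log2 fold changes were 0.55 for Zfp786, 0.46 for Zfp647, -1.70 for Zfp773 and 0.42 for Zfp811. Of the 5 tested, Zfp773 was called lower and Zfp831 higher, and Zfp773 was not called without saline replicate 2 or by DESeq2. Of the 15, 10 were too low to test, among them Zfp735 with 0 counts. That allows up to 0.111 to 0.145 CPM per library before TMM scaling, for counting error only.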

How the data were processed

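Raw gene counts, as the authors deposited them, were used for 2 cisplatin and 2 saline kidney libraries, with groups taken from the treatment labels. The authors' deposited FPKM table, which scales fragments by transcript length and library, was used for levels and as an alternative. Per the labels' protocols, total RNA was depleted of ribosomal RNA and sequenced as paired reads of 150 nt from directional libraries. Per the submitters' processing notes, which give no versions, bcl2fastq, TopHat2, edgeR and the build GRCm38 were used. How reads were counted, with what strand setting and what was done with reads matching several genes is not given in these sources.

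The main test was edgeR 4.0.16 in R 4.3.3 (filterByExpr, TMM scaling, quasi-likelihood F test, all 4 libraries, 2 residual degrees of freedom). Benjamini-Hochberg adjustment ran over all 17419 genes tested, with 0.05 as the limit for a call. Log2 fold changes are cisplatin over saline. Their standard errors were derived from the quasi-likelihood F statistic, as the absolute log2 fold change over the square root of F. The biological coefficient of variation was 6.42%. Library totals of 20662475 to 27122403 counts put a floor of 3 counts at 0.111 to 0.145 CPM before TMM scaling, and floors cover counting error only. The scripts were tested on simulated data. Alternatives used DESeq2 1.42.0, limma 3.58.1 on log2(FPKM + 0.1) and log2(FPKM + 1), other scalings, other filters, a fit with a replicate block, and fits without 1 library.

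Fingers and KRAB boxes were counted in translations of GENCODE M21 coding sequences (GRCm38), and promoter sequences are RefSeq's. Members, lists and motifs were chosen with earlier results of these data known. Genes are named as the 8 largest rises and 8 largest falls among members called with at least 1 CPM and no overlap, the 6 highest by FPKM, a list with known roles, those on either side of 100 counts, the 4 with the widest replicate spread, and 5 corepressors with the 2 largest rises and 2 largest falls of their list. Zfp646, Zfp689, Zfp768 and the other cluster neighbours named were added after their values were seen, as were the wider KRAB motif and the subsets without exon overlap or shared 100-base windows. Libraries with the same replicate number deviated from their group means with a correlation of -0.0213. That gives no sign that the numbers pair the samples, but with 2 libraries a group it cannot exclude pairing.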

Additional observations from a re-analysis of the deposited data

How the results depend on the processing

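Of all genes, 12820 were called. Leaving out 1 library in turn gave 11490 to 12504 calls over all genes (5622 to 6237 higher, 5868 to 6267 lower), 72 to 80 member calls (25 to 29 higher, 44 to 53 lower) and a member median of -0.18 to -0.11. The replicate block, a fit with the replicate number as a term, called 12653 genes and 81 members. It changed no call of a named gene, and is a check only because the numbers are not known to pair the samples. Size factors by relative log expression gave 28 members higher and 54 lower. The member median was 0.0182 after upper-quartile scaling, 0.27 using library size alone, 0.16 on log2(FPKM + 0.1), 0.10 on log2(FPKM + 1), -0.23 without exon overlaps and -0.0473 without shared windows. Genes called lower numbered 4207 with library size alone, 3804 on log2(FPKM + 0.1) and 3784 on log2(FPKM + 1). Members called lower numbered 25, 14 and 15 in the same settings, and 35 without shared windows. Members called higher numbered 58 with library size alone and 17 without exon overlaps, and members called in all numbered 46 and 47 on the FPKM scales.

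The sign turned for Chd4 (0.26), Setdb1 (0.24), Zfp638 (0.0121), Zfp644 (0.0742), Zfp652 (0.35), Zfp655 (0.30), Zfp784 (0.0321) and Zfp947 (0.35) with library size alone. It turned for Chd4 (0.00954), Zfp652 (0.10), Zfp655 (0.0503) and Zfp947 (0.10) with upper-quartile scaling. On log2(FPKM + 0.1) it turned for Chd4 (0.16), Setdb1 (0.15), Zfp652 (0.24), Zfp655 (0.20) and Zfp947 (0.21), and on log2(FPKM + 1) for the same genes at 0.16, 0.13, 0.18, 0.19 and 0.14. With a filter of 1 CPM it turned for Zfp652 (0.00557) and Zfp947 (0.0122). With 1 library left out, Zfp947 ranged from -0.36 to 0.27, turning without cisplatin replicate 2. Turning without saline replicate 2, Zfp609 ranged from -0.0941 to 0.23, Zfp652 from -0.0614 to 0.0074 and Zfp784 from -0.62 to 0.0811. Of the named genes, DESeq2 did not call 7 that edgeR called, and limma on log2(FPKM + 0.1) did not call 12. The cause of these differences was not tested. With 2 libraries a group, small changes of members under 1 FPKM are at the limit of what could be detected at this depth.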
